A study of Mus musculus with 14 samples.

Results

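Muscle cells assemble their contractile filaments from proteins that exist as several isoforms, each made from a gene of its own. Troponin, the calcium switch of the thin filament, consists of troponin I, which inhibits contraction, troponin T, which binds tropomyosin, and troponin C, which binds calcium. Each has a cardiac form (Tnni3, Tnnt2 and Tnnc1, the last shared with slow skeletal muscle) and forms that are typical of slow or fast skeletal muscle. Tnni1, the slow skeletal troponin I, is also the form of the foetal heart, before Tnni3 replaces it. The adult ventricle makes mainly the cardiac forms, and skeletal muscle of the chest wall can be taken along when a heart is dissected.

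The levels of 9 genes of slow or fast skeletal muscle isoforms were described in mouse ventricle after myocardial infarction (MI). The genes were chosen with earlier results of the same arrays known, so their levels and differences are descriptions and carry no p-value. They were Tnni1 and Tnnt1, the slow skeletal troponins I and T, and 7 genes of fast skeletal fibres. The fast genes were Tnnt3, Tnni2 and Tnnc2 (fast troponins T, I and C), Myoz1 (a Z-disc protein that binds calcineurin), Atp2a1 (SERCA1, the calcium pump of fast fibres), Actn3 (alpha-actinin 3 of the fast Z-disc) and Mylpf (the regulatory light chain of fast myosin). Of 55482 probes that are not controls, 10 read these 9 genes, out of 20614 genes with a name here. Tnnt3 had 2 probes, and each of the other 8 genes had 1.

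The tissue was the border zone of the ventricle from male C57BL/6 mice operated on at 8 weeks of age. The left anterior descending coronary artery was ligated for good in the MI groups, whose hearts were taken 14 days (5 arrays) or 3 days (5 arrays) later, and the sham group (4 arrays) had the same operation without ligation. When the sham hearts were taken was not stated, and the design text speaks of 5 sham-operated mice where 4 arrays were analysed here. No genetic change was described in any group, and 1 sample was hybridised per array.

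A level is the log2 of a probe's intensity minus the log2 of the 75th percentile of all probes on its array, so 0 is the 75th percentile. Levels of different probes cannot be set against each other. The 75th percentile of intensity lay between 188.6 and 443 on the 14 arrays, and pairs of arrays of a group correlated at 0.979 to 0.992. A probe was tested where it was well above background on every array with scanner output of at least 1 group. Such output was at hand for 10 arrays: 4 at MI 14 days, 2 at MI 3 days and 4 shams. That left 32261 probes and, among the 9 genes, 8 probes of 7 genes. Actn3 was well above background on 1 of the 10 arrays (MI 14 days replicate 5) and Mylpf on 0 of 10. Their levels are given below, without a fitted difference. The number of arrays limits the precision. In bulk tissue, fewer cells of a type and less RNA per cell cannot be told apart.

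One array stood apart before any comparison. MI 3 days replicate 3 was the highest array of its group for 14 of 20 skeletal muscle genes that are not among the 9, and for 5 of them it was more than 2 log2 units above every other array of the group. Myh4, the myosin heavy chain of the fast IIB fibres, had levels of -6.48, -5.64, -4.51, -3.39 and 1.28 in the MI 14 days hearts (replicates 1 to 5), -5.89, -4.51, 5.03, -6.41 and -4.68 in the MI 3 days hearts, and -1.63, -5.71, -6.27 and -6.57 in the sham hearts. It was well above background on 4 of 10 arrays with scanner output. Myh1, the IIX heavy chain, was at -0.84 on MI 3 days replicate 3 and between -7.33 and -6.34 on the other 4 arrays of that group. Pvalb, the calcium buffer parvalbumin of fast fibres, was at 3.28 on that array and between -1.46 and -1.29 on the other 4. MI 14 days replicate 5 was the highest of its group for Myh4 and for Pvalb, at 0.52 against -0.83 to -0.17 on the other 4. Of the 20 genes, 8 were highest in their group on that array and 7 on MI 14 days replicate 3. Ampd1, another of the 20, reached 2.91 on MI 14 days replicate 3. Sham replicate 1 was the highest sham array for Myh4 (-1.63) and for 3 of the 20 genes in all, against 8 on sham replicate 2. The sum of the linear levels over the 20 genes ranged from 30.7 to 40.7 in the MI 14 days hearts, from 19.8 to 83.5 (median 27.2) in the MI 3 days hearts and from 28.2 to 39.9 in the sham hearts. Much of it was Myl1, at 4.22 to 4.54 on the MI 14 days arrays other than replicate 5, so moderate Myh4 signal hardly shows in it. The sum was 38.9 on MI 14 days replicate 5 (Myh4 at 1.28) and 37.7 on replicate 2 (Myh4 at -5.64). MI 3 days replicate 3 has no scanner output, so its background calls and slide were not known here. Results are therefore given with and without this array. The fits use 1 spread shared by the 3 groups. Where this array stood apart, it also widens the standard errors of MI 14 days against sham, a contrast it is not part of.

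The RNA of Tnnt1 and Atp2a1 moved together through the arrays, and that of Tnnc2 was high on 1 array, so the promoter windows of these 3 genes are shown. They run from 250 bases before to 50 bases after the start in RefSeq (GRCm38.p6), 5′ to 3′ on the gene's strand, in lower case. Capitals mark E-boxes (CANNTG), the sites of myogenic bHLH factors, and the TATA box (TATAAA). Tnnt1 lies at chr7:4515926-4516225 on the minus strand, Atp2a1 at chr7:126463024-126463323 on the minus strand and Tnnc2 at chr2:164779685-164779984 on the minus strand.
Tnnt1: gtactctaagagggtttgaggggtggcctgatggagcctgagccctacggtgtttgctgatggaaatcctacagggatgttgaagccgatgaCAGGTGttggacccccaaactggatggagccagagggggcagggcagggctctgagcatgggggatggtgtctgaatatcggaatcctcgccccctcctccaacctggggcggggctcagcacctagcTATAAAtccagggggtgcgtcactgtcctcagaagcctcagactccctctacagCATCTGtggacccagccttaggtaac
Atp2a1: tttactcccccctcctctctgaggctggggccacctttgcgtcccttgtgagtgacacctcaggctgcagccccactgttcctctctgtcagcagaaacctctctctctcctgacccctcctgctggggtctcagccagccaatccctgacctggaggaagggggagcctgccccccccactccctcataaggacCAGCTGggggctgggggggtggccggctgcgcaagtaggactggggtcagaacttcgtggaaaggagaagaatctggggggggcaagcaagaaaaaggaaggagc
Tnnc2: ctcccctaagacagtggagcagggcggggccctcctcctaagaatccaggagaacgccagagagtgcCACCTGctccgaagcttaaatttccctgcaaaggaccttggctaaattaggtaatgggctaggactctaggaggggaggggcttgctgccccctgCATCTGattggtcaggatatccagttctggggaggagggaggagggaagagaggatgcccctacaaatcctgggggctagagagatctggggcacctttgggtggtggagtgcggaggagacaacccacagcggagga
Both strands were searched. The Tnnt1 window held 2 E-boxes and a TATA box 30 bases before the start, the Atp2a1 window 1 E-box and the Tnnc2 window 2. Of 32851 RefSeq promoter windows of this length, 72.3% held an E-box and 13.6% a TATA box. The MCAT motif of TEAD factors (CATTCC, in 14.7% of windows), the MEF2 site (3.19%) and the CArG box of serum response factor (1.63%) had no match in the 3 windows. Among the 9 genes, 5 had a RefSeq window (also Tnni1 and Mylpf). On chromosome 7, Tnni2, Lsp1 and Tnnt3 lie next to each other in that order, and Tnnt1 is the neighbour of the cardiac Tnni3.

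**Figure D1:**
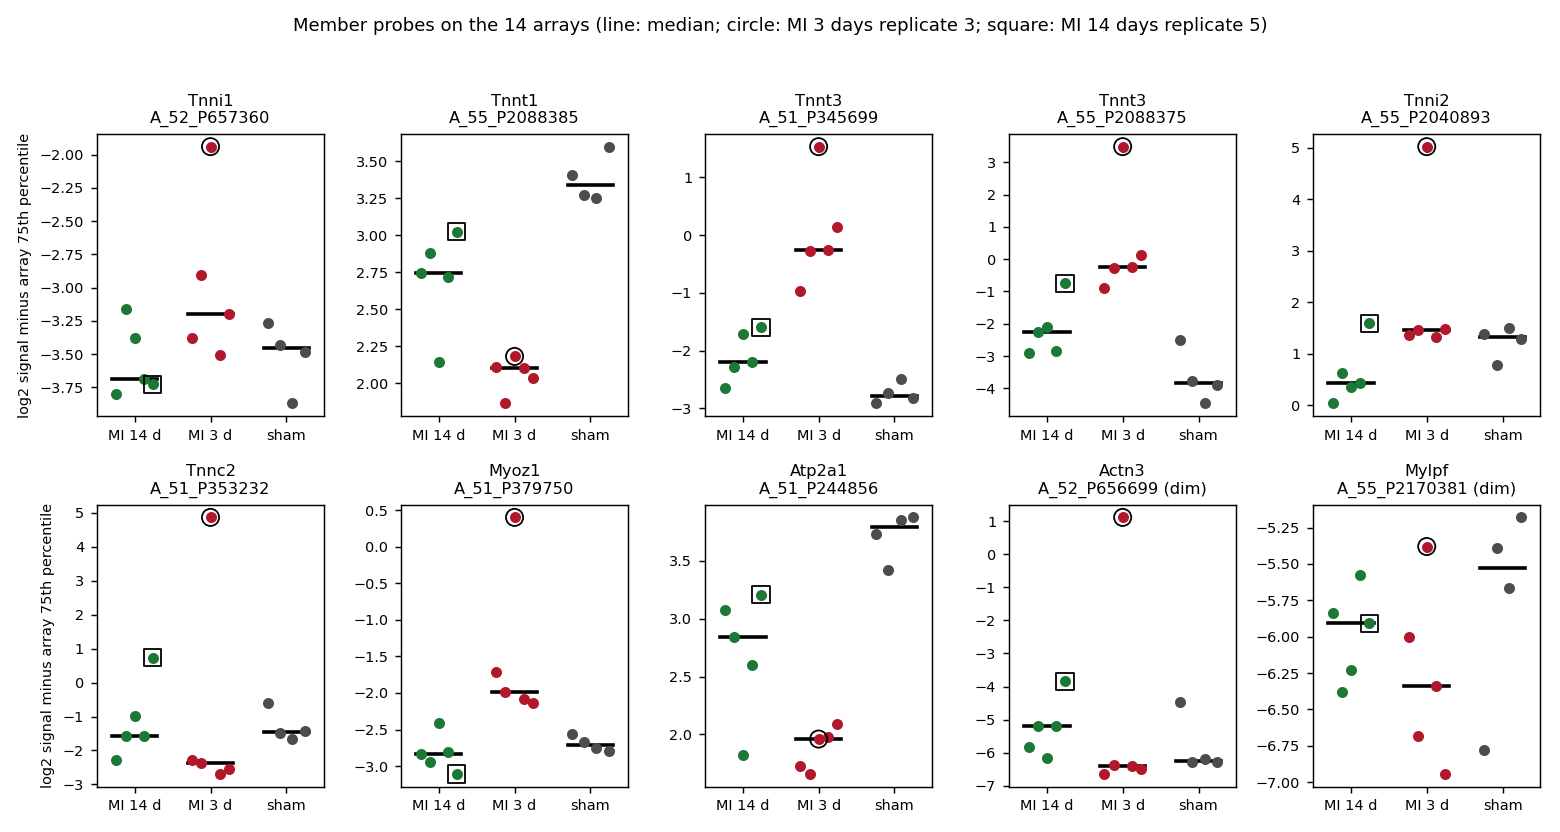
Level of each of the 10 probes (vertical axes, log2 level as defined above, each panel with a scale of its own) on every array, by group from left to right MI 14 days, MI 3 days and sham. Points are arrays and lines are group medians, the circle marks MI 3 days replicate 3 and the square MI 14 days replicate 5. In the Tnnc2 and Actn3 panels the circled array stands far above all others, at 4.86 and 1.11 (no background call was at hand for it), while in the Tnnt1 and Atp2a1 panels it lies among the rest of its group.

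The slow troponin I gene Tnni1, the foetal cardiac form, was low in all groups and stayed near the sham level. Its levels were -3.80, -3.16, -3.38, -3.69 and -3.73 in the MI 14 days hearts, -3.38, -2.91, -1.94, -3.51 and -3.20 in the MI 3 days hearts and -3.27, -3.43, -3.87 and -3.49 in the sham hearts. All 3 groups overlapped, and the highest value again came from MI 3 days replicate 3. The fitted difference from sham was 0.53 ± 0.27 (SE) log2 at 3 days, and 0.26 ± 0.18 without that array. At 14 days it was -0.04 ± 0.27, and -0.04 ± 0.17 without that array. On the 2 slides that held both groups the 3-day difference was 0.36 and 0.28. Here and below, each such 3-day value sets a single MI array against a single sham array. These were MI 3 days replicate 4 against sham replicate 3, and MI 3 days replicate 5 against sham replicate 4.

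The slow troponin T gene Tnnt1 was lower after infarction at both times. It measured 2.74, 2.88, 2.14, 2.72 and 3.02 in the MI 14 days hearts, 2.11, 1.86, 2.18, 2.10 and 2.04 in the MI 3 days hearts and 3.41, 3.27, 3.25 and 3.60 in the sham hearts. Every infarcted heart lay below every sham heart, and the 14-day hearts reached higher than the 3-day hearts, with 1 of 5 (replicate 3, at 2.14) inside the 3-day range. The difference was -1.32 ± 0.15 log2 at 3 days, a fold of 0.399, and -0.68 ± 0.15 at 14 days, a fold of 0.623. Between the times it was 0.64 ± 0.14. Within slides the 3-day differences were -1.15 and -1.56 and the 14-day differences -0.60 and -0.97.

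The fast troponin T gene Tnnt3 showed the widest separation between the groups at 3 days. The probe that stands for it, A_51_P345699, had levels of -2.65, -2.28, -1.71, -2.20 and -1.59 in the MI 14 days hearts, -0.96, -0.27, 1.53, -0.25 and 0.14 in the MI 3 days hearts and -2.91, -2.73, -2.49 and -2.83 in the sham hearts. Each 3-day heart lay above every 14-day and every sham heart, also without replicate 3, whereas 14-day and sham hearts overlapped. The difference from sham was 2.78 ± 0.38 log2 at 3 days (6.86-fold) and 2.40 ± 0.25 (5.29-fold) without MI 3 days replicate 3. With normexp background correction on the 10 arrays with scanner output, whose offset of 50 compresses dim probes, the 3-day difference was 1.64. At 14 days the difference from sham was 0.65 ± 0.38, and 0.65 ± 0.24 without MI 3 days replicate 3. Comparing 14 days with 3 days gave -2.12 ± 0.36, and -1.75 ± 0.24 without that array.

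The second Tnnt3 probe, A_55_P2088375, which carries another transcript accession, ran the same way. It measured -2.90, -2.26, -2.09, -2.83 and -0.75 in the MI 14 days hearts, -0.89, -0.28, 3.49, -0.23 and 0.14 in the MI 3 days hearts and -2.51, -3.78, -4.46 and -3.91 in the sham hearts. Its 3-day difference was 4.12 ± 0.76 log2, and 3.35 ± 0.47 without MI 3 days replicate 3. The levels of the 2 probes correlated across the 14 arrays at 0.94 and across 12 arrays, without MI 3 days replicate 3 and MI 14 days replicate 5, at 0.92. These arrays share their group differences. On the 2 slides with both groups, the 3-day difference was 2.24 and 2.97 by the first probe and 4.23 and 4.05 by the second. The second probe was well above background on 3 of 4 sham arrays, so the sizes of its differences from sham are uncertain. Under 28 other choices of arrays and processing its 3-day difference was 1.77 at the lowest, and 0 of them turned its sign.

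Markers of other cells are set beside the Tnnt3 values. On the 4 MI 3 days arrays other than replicate 3, Myh4 ran from -6.41 to -4.51, and Pvalb from -1.46 to -1.29, below its sham range of -0.69 to -0.32. Myh2, the IIA heavy chain, was at -0.78 on MI 3 days replicate 5 and between -6.76 and -6.25 on replicates 1, 2 and 4. Of 5 macrophage genes tested, 4 rose at 3 days and 1, the integrin Itgam, fell by the probe that stands for it here (limma, Benjamini-Hochberg). The 3 Itgam probes disagreed, since another fell as well and the remaining one was 5.66-fold higher at 3 days (adjusted p = 4.4e-07). The monocyte receptor gene Ccr2 rose by 4.15 ± 0.21 log2 (adjusted p = 3.8e-09), Lyz2 (lysozyme) by 2.03 ± 0.25 (adjusted p = 7.7e-06) and Adgre1 (a surface receptor of macrophages) by 1.68 ± 0.15 (adjusted p = 5.0e-07). The summed linear level of the macrophage genes was 186 to 213 in the MI 14 days hearts, 154 to 199 in the MI 3 days hearts and 165 to 220 in the sham hearts. Without Itgam it was 37.4 to 54.0 in the MI 14 days hearts, 59.7 to 110.3 in the MI 3 days hearts and 31.4 to 41.2 in the sham hearts. Lsp1, a leukocyte protein gene next to Tnnt3 on chromosome 7 and chosen after its values were seen, rose by 1.33 ± 0.14 log2 at 3 days (limma adjusted p = 1.2e-06). The part of these cells in the Tnnt3 difference was not tested.

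The fast troponin I gene Tnni2 did not separate the groups at 3 days. It measured 0.04, 0.62, 0.36, 0.42 and 1.59 in the MI 14 days hearts, 1.36, 1.47, 5.03, 1.32 and 1.48 in the MI 3 days hearts and 1.39, 0.78, 1.50 and 1.28 in the sham hearts. Replicate 3 of MI 3 days stood 3.62 log2 units above the mean of the other 4, whose values lay within the sham range. The 3-day difference was 0.89 ± 0.64 log2 with that array and 0.17 ± 0.27 without it. At 14 days it was -0.63 ± 0.64, and -0.63 ± 0.25 without MI 3 days replicate 3. Of the MI 14 days hearts, 4 of 5 lay below every sham heart and replicate 5 above them all. For 14 days against 3 days the difference was -1.52 ± 0.60, and -0.80 ± 0.25 without MI 3 days replicate 3.

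The fast troponin C gene Tnnc2 changed sign with 1 array. Its levels were -2.29, -1.58, -0.97, -1.57 and 0.73 in the MI 14 days hearts, -2.29, -2.37, 4.86, -2.69 and -2.55 in the MI 3 days hearts and -0.60, -1.48, -1.68 and -1.43 in the sham hearts. MI 3 days replicate 3 was 7.34 log2 units above the mean of the other 4, all of which lay below every sham heart. The fitted 3-day difference was 0.29 ± 1.27 log2 with all arrays and -1.18 ± 0.49 without replicate 3, and within slides it was -1.02 and -1.11. At 14 days the difference was 0.16 ± 1.27, and 0.16 ± 0.47 without MI 3 days replicate 3. MI 14 days replicate 5 stood 2.33 above the mean of its group's other 4 arrays. For 14 days against 3 days the difference was -0.13 ± 1.20, and 1.34 ± 0.47 without MI 3 days replicate 3.

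The Z-disc gene Myoz1 was higher at 3 days and at the sham level at 14 days. It measured -2.83, -2.95, -2.41, -2.81 and -3.11 in the MI 14 days hearts, -1.72, -1.99, 0.40, -2.08 and -2.13 in the MI 3 days hearts and -2.57, -2.66, -2.75 and -2.79 in the sham hearts. The 3-day hearts lay above all 14-day and all sham hearts, also without replicate 3. The 3-day difference was 1.19 ± 0.41 log2 (2.28-fold) with that array and 0.71 ± 0.14 (1.64-fold) without it, and 0.67 and 0.66 within slides. With normexp on the arrays with scanner output it was 0.15. The 14-day difference was -0.13 ± 0.41, and -0.13 ± 0.13 without MI 3 days replicate 3.

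The calcium pump gene Atp2a1 was lower at both times, as was Tnnt1. Its levels were 3.07, 2.84, 1.82, 2.60 and 3.21 in the MI 14 days hearts, 1.73, 1.66, 1.96, 1.98 and 2.09 in the MI 3 days hearts and 3.73, 3.42, 3.85 and 3.88 in the sham hearts. Neither MI group overlapped with sham, and MI 14 days replicate 3 (1.82) fell inside the 3-day range. The difference was -1.84 ± 0.23 log2 at 3 days, a fold of 0.280, and -1.01 ± 0.23 at 14 days, a fold of 0.496. Leaving out MI 3 days replicate 3 gave -1.86 ± 0.25 at 3 days. The 3-day differences within slides were -1.87 and -1.79 and the 14-day ones -0.51 and -1.33. Probe sequences were not at hand, so whether this single probe also reads the cardiac pump gene Atp2a2 was not tested.

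The MI 14 days heart with the lowest Tnnt1 and Atp2a1, replicate 3, was more than 2 log2 units above every other array of its group for 5 of 8 fat genes. The summed linear level of the fat genes was 22.2 to 73.9 (median 26.4) in the MI 14 days hearts, 13.5 to 21.5 in the MI 3 days hearts and 26.8 to 36.2 in the sham hearts. In the MI 3 days hearts other than replicate 3 this sum was almost wholly Cidea. Its levels there ran from 3.95 to 4.41, while the other fat genes reached -2.39 at most (Cfd). The sum therefore says little about those other genes. Without MI 14 days replicate 3 the 14-day differences were -0.54 for Tnnt1 and -0.79 for Atp2a1. Atrial genes moved with the same groups: of 5 tested, 1 rose and 4 fell at both times (limma, Benjamini-Hochberg). Sln (sarcolipin, an inhibitor of the calcium pump; adjusted p = 6.9e-04) and Myl7 (the atrial light chain; adjusted p = 1.2e-05) were among those that fell at 3 days. Each was well above background on 1 of 2 MI 3 days arrays with scanner output and on 4 of 4 sham arrays, so no size is given. All 7 ventricular myocyte genes fell at 3 days and 1 of 7 at 14 days (0 without sham replicate 2, 3 or 4 or MI 14 days replicate 2, 3 or 4, 2 without MI 14 days replicate 5, and 3 without both it and MI 3 days replicate 3). Their summed linear level was 5154 to 7038 in the MI 14 days hearts, 2932 to 3420 in the MI 3 days hearts and 4914 to 6299 in the sham hearts. The part of these cells in the Tnnt1 and Atp2a1 differences was not tested.

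The 2 genes left untested are given by their signals alone. Actn3 was at -5.83, -5.19, -6.15, -5.19 and -3.84 in the MI 14 days hearts, -6.64, -6.36, 1.11, -6.40 and -6.49 in the MI 3 days hearts and -4.46, -6.29, -6.20 and -6.28 in the sham hearts. Mylpf was at -5.84, -6.38, -6.23, -5.58 and -5.91 in the MI 14 days hearts, -6.00, -6.68, -5.38, -6.34 and -6.94 in the MI 3 days hearts and -6.78, -5.39, -5.67 and -5.18 in the sham hearts. Of the arrays with scanner output, Actn3 was well above background on MI 14 days replicate 5 alone and Mylpf on none, so the order of the remaining such signals has no meaning. The Actn3 signal of 1.11 on MI 3 days replicate 3 was the highest of the 14 arrays, and no background call was at hand for it.

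**Figure D2:**
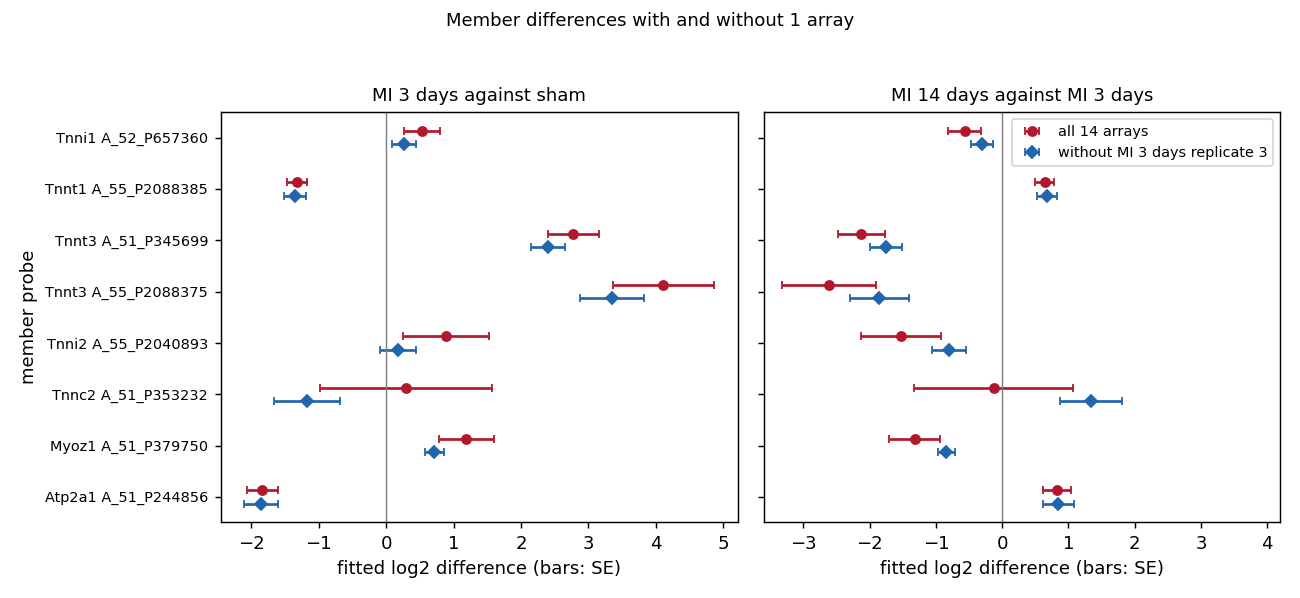
Fitted log2 difference (horizontal axis, bars are SE) of the 8 tested probes at MI 3 days against sham (left) and at MI 14 days against MI 3 days (right), with all 14 arrays (circles) and without MI 3 days replicate 3 (diamonds). Tnnt1 and Atp2a1 moved little, while the 3-day value of Tnnc2 passed from 0.29 to -1.18 when the array was left out.

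The distance of MI 3 days replicate 3 from the mean of the other 4 arrays of its group differed widely between the genes. It was 7.34 log2 units for Tnnc2, 3.80 and 1.87 for the Tnnt3 probes, 3.62 for Tnni2, 2.38 for Myoz1 and 1.31 for Tnni1. For Tnnt1 it was 0.15 and for Atp2a1 0.10, although Atp2a1 encodes a pump of fast fibres. MI 14 days replicate 5 exceeded its group's other arrays by 2.33 for Tnnc2 and 1.24 for Tnni2, and by 0.62 for Atp2a1, 0.40 for Tnnt1 and -0.36 for Myoz1. On the same array Tnnt2, the cardiac troponin T, was at 10.03 against 9.36 to 9.55 on the other 4.

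Levels minus the group mean show which of the genes went together from array to array. These correlations across 14 arrays describe arrays that share tissue handling and scaling. Tnnc2 correlated with Tnni2 at 0.98 over all arrays and at 0.36 without MI 3 days replicate 3 and MI 14 days replicate 5. Tnnc2 correlated with Actn3 at 0.97 over all arrays. Without both arrays no value is given, since Actn3 was well above background on none of the remaining arrays with scanner output. Tnnt1 and Atp2a1 correlated at 0.85, and at 0.81 without both arrays. Atp2a1 also followed the cardiac pump gene Atp2a2 (0.79, and 0.87 without both), whereas Myoz1 ran against the cardiac Myoz2 (-0.86, and -0.36 without both).

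Of 14863 genes ranked by correlation of their levels minus the group mean, Pvalb was most like the mean of the fast genes (Pearson r = 0.99, Spearman rho = 0.89, 14 arrays). That mean was taken over all 7 fast genes, also the untested Actn3 and Mylpf. Without the 2 arrays farthest from the median, MI 3 days replicate 3 and MI 14 days replicate 5, Pearson's r was 0.93. For such values in this paragraph, group means were still taken over all 14 arrays, unlike in the correlations above. The arrays left out therefore still shift the remaining arrays of their groups, and these values are not free of them. Mybpc1, the slow skeletal myosin-binding protein C, came next at 0.92 (0.59 without those arrays), followed by Ccl24 at 0.92 (0.70), Plin2 at 0.91 (0.60) and Emilin2 at 0.91 (0.56). The genes nearest to Tnni1 were Lmbr1l at 0.89 and Adora3 at 0.88, at 0.73 and 0.75 without MI 3 days replicates 3 and 4. Ranked by the levels themselves, Pvalb was again nearest to the mean of the fast genes, at 0.94 (Spearman rho = 0.65). Without MI 3 days replicate 3 and MI 14 days replicate 5 its Pearson's r was 0.28. Ltc4s (0.85) and Rilpl2 (0.83) followed in that ranking, at -0.19 and -0.16 without those arrays.

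**Figure D3:**
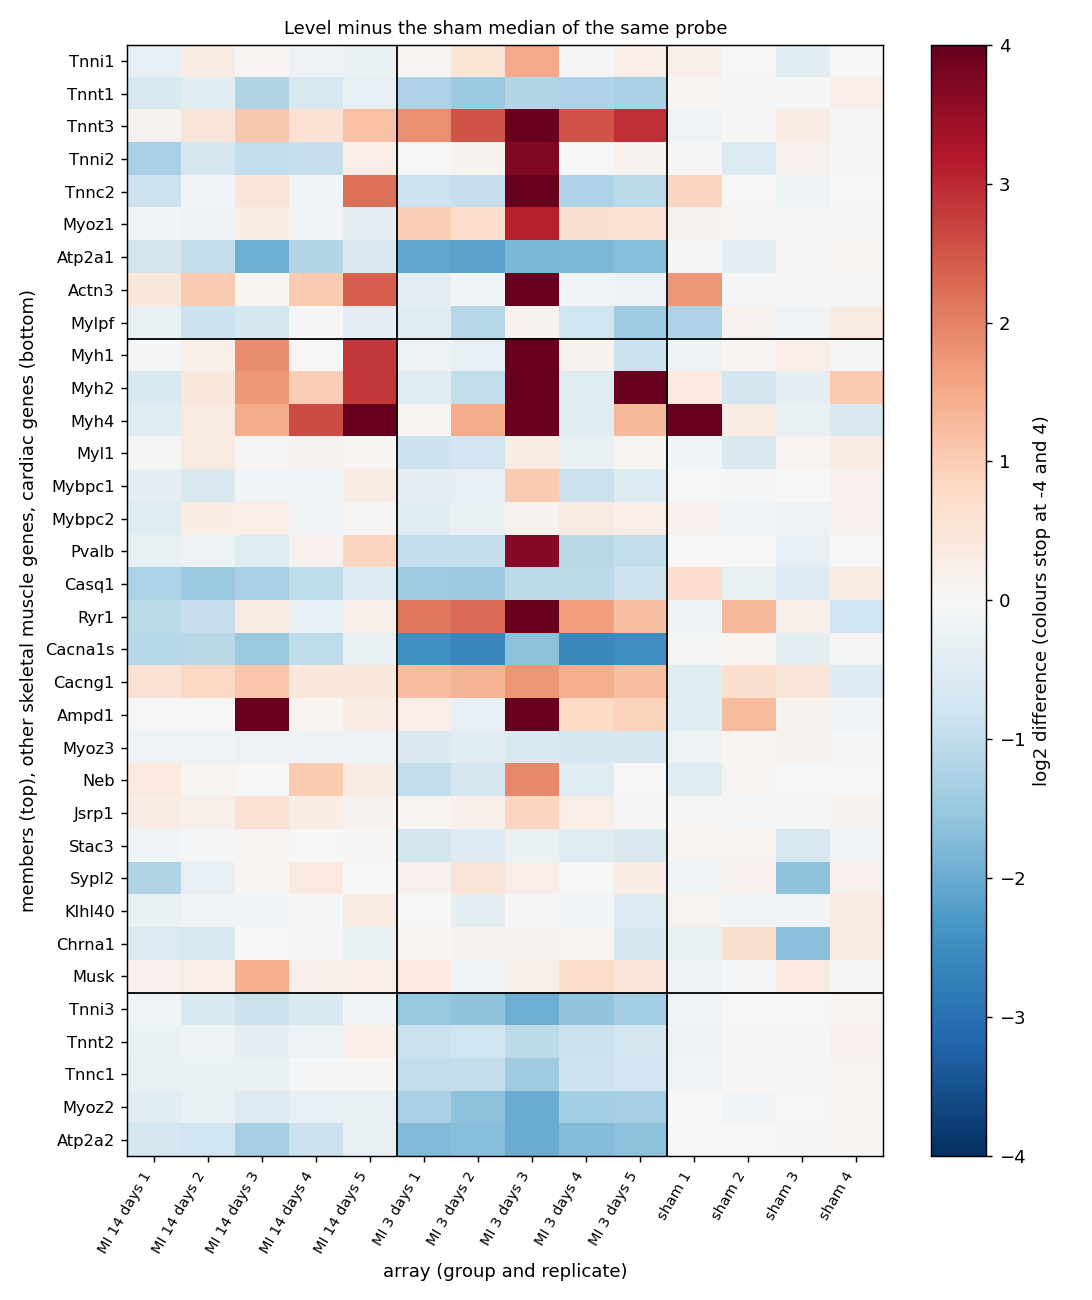
Level of each gene minus its sham median (colour, log2, cut off at -4 and 4) on the 14 arrays, which run from left to right through MI 14 days, MI 3 days and sham. The top block holds the 9 genes described, the middle block 20 other skeletal muscle genes and the bottom block 5 cardiac partners. The column of MI 3 days replicate 3 is red for Myh4, Myh1, Pvalb, Tnni2, Tnnc2 and Actn3, while Tnnt3 is red and Tnnt1 and Atp2a1 are blue in all 5 columns of that group.

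Across all tested probes, 65.2% passed an adjusted p of 0.05 at 3 days against sham (25.5% higher, 39.7% lower), 32.5% at 14 days against sham (12.8% higher, 19.8% lower) and 55.6% at 14 days against 3 days (32.7% higher, 22.9% lower). Of the 7 genes tested, 2 were higher (Tnnt3, Myoz1) and 2 lower (Tnnt1, Atp2a1) by this rule at 3 days, and the same 4 without MI 3 days replicate 3, where the share of all probes was 62.4%. At 14 days 2 were lower (Tnnt1, Atp2a1). At 14 days against 3 days, 2 were higher (Tnnt1, Atp2a1) and 3 lower (Tnnt3, Tnni2, Myoz1), and without MI 3 days replicate 3 Tnnc2 was also higher, where 51.2% of all probes passed. Since the genes were chosen on these contrasts, nothing is read from the counts. With slide as a block, on the arrays with scanner output, 0 of 7 passed at 14 days against sham, where 15.7% of all probes did (1 higher and 3 lower at an unadjusted p under 0.05), and the same 4 genes passed at 3 days, where 50.8% did. In that fit 0 were higher and 2 lower (Tnnt3, Myoz1) at 14 days against 3 days, where 28.3% of all probes passed (0 higher and 3 lower at an unadjusted p under 0.05). Arrays of the compared groups were fully apart for 4 of the 7 at 3 days (5 without MI 3 days replicate 3, against 59.1% of all probes), 2 at 14 days and 2 for 14 days against 3 days, against 56.8%, 27.4% and 40.0% of all probes. The median difference was 0.53 log2 over the 7 genes at 3 days (0.17 without MI 3 days replicate 3) and -0.13 at 14 days, against -0.15 and -0.08 over 14870 tested genes. Over all tested probes the median shifted by -0.19 (MI 3 days against sham), -0.09 (MI 14 days against sham) and 0.13 (MI 14 days against MI 3 days), and the differences above are to be read against that.

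The cardiac partners of these genes fell at 3 days and rose between 3 and 14 days. All 7 tested partners fell at 3 days against sham (median -0.99 log2; limma, Benjamini-Hochberg). Tnni3, the cardiac troponin I, fell by 1.60 ± 0.15 log2 (adjusted p = 7.1e-07), and the cardiac calcium pump Atp2a2 by 1.77 ± 0.15 (adjusted p = 2.7e-07). Myoz2 fell by 1.51 ± 0.13 (adjusted p = 1.9e-07) and Tnnt2 by 0.85 ± 0.13 (adjusted p = 4.8e-05). At 14 days 3 of 7 fell (Tnni3, Myoz2 and Atp2a2; median -0.29), but 1 with quantile normalization, and also 1 when sham replicate 2, 3 or 4 or MI 14 days replicate 3 or 4 was left out. All 7 rose at 14 days against 3 days (median 0.82 log2).

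The ratio of each gene to its cardiac partner within an array does not depend on the scaling of arrays. At 3 days the Tnnt3 to Tnnt2 ratio was higher than in sham by 3.63 log2 (SD 0.99 among 5 MI arrays and 0.24 among 4 sham arrays), and by 3.21 without MI 3 days replicate 3. The Myoz1 to Myoz2 ratio was higher by 2.70, and by 2.11 without that array. The Tnni1 to Tnni3 ratio was higher by 2.12 (1.77 without it) and the Tnni2 to Tnni3 ratio by 2.49 (1.68 without it). No MI 3 days array overlapped with sham in these 4 ratios, where 56.8% of all tested probes taken singly did not overlap either. The partners Tnni3, Myoz2 and Tnnt2 all fell at 3 days, so an unchanged gene would also have a higher ratio. Without MI 3 days replicate 3 the differences of Tnni1 and Tnni2 themselves were 0.26 and 0.17 log2. The Tnnc2 to Tnnc1 ratio differed by 1.27 with all arrays and by -0.31 without MI 3 days replicate 3, with overlapping groups both times. The Atp2a1 to Atp2a2 ratio differed by -0.07 (SD 0.23 among MI and 0.21 among sham arrays), less than the spread between arrays, and groups overlapped. The Tnnt1 to Tnnt2 ratio differed by -0.47 at 3 days and -0.52 at 14 days. At 14 days the Tnnt3 to Tnnt2 ratio was still higher by 0.81 with no overlap, whereas the Tnni1 to Tnni3 difference of 0.42 and the Myoz1 to Myoz2 difference of 0.23 came with overlapping groups.

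**Figure D4:**
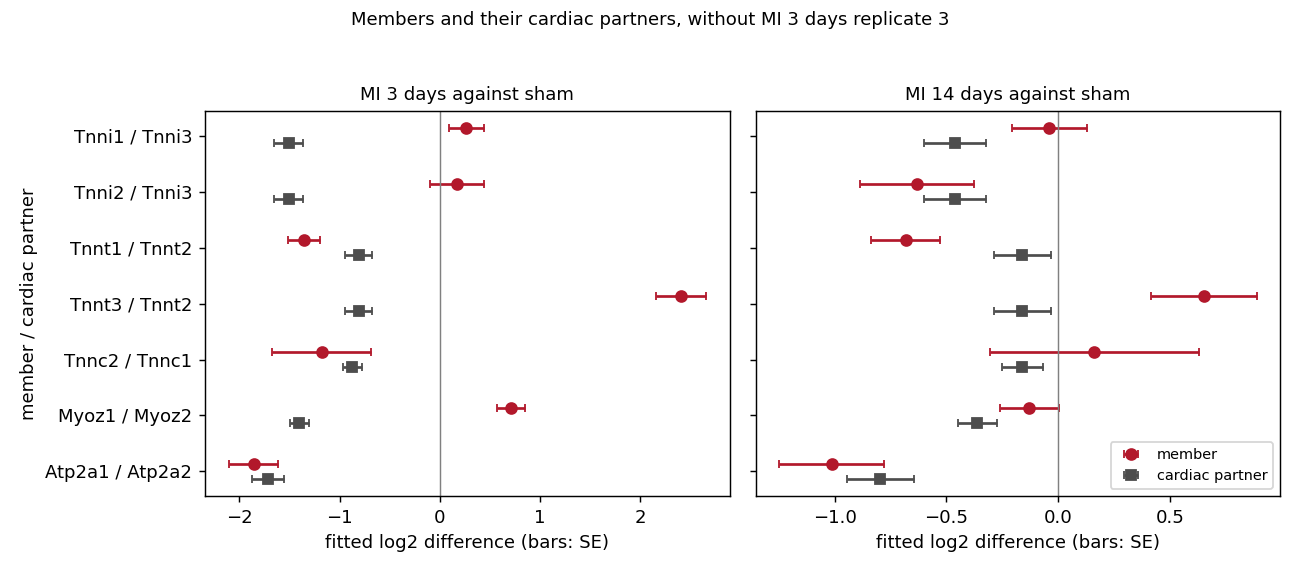
Fitted log2 difference (horizontal axis, bars are SE) of 7 genes (circles) and of the cardiac partner named with each (squares), at MI 3 days against sham (left) and MI 14 days against sham (right), fitted without MI 3 days replicate 3. At 3 days every partner lies below 0, and Atp2a1 lies beside Atp2a2 while Tnnt3 and Myoz1 lie on the other side of 0 from Tnnt2 and Myoz2.

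Other skeletal muscle genes did not share 1 direction at 3 days. Of 20 such genes 14 were tested, and at 3 days against sham 2 rose and 4 fell (6 fell without MI 3 days replicate 3), with a median of -0.12 log2 (-0.42 without that array). Ryr1, the calcium release channel of skeletal muscle, rose with all arrays (limma adjusted p = 0.0064) and without that array (adjusted p = 0.0046). It was well above background on 2 of 2 MI 3 days arrays with scanner output and on 1 of 4 sham arrays, so no size is given. Cacng1, a subunit of the skeletal muscle calcium channel, was not well above background on any sham array and was at least 2.07-fold higher at 3 days (adjusted p = 2.0e-04). For that bound, the mean of the 5 MI arrays was set against a floor averaged over the sham arrays: the dimmest signal still called well above background on each, or this probe's signal if that was higher. Without MI 3 days replicate 3 the MI mean was -3.32 rather than -3.24, so the bound would be lower. Cacna1s, the pore of that channel, fell by 2.27 ± 0.24 log2 (adjusted p = 1.5e-06), and Casq1, the calcium store protein of fast fibres, by 1.19 ± 0.24 (adjusted p = 6.9e-04). At 14 days 0 rose (1 at an unadjusted p under 0.05) and 2 fell, Cacna1s by 0.94 ± 0.24 (adjusted p = 0.0083) and Casq1 by 1.16 ± 0.24 (adjusted p = 0.0029). For 14 days against 3 days, 3 rose and 2 fell, and 6 rose and 2 fell without MI 3 days replicate 3.

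Of the 10 genes of myogenic and regenerating muscle, 5 were tested. The regulators Myod1, Myog and Myf5 were not well above background on any array with scanner output. At 3 days 0 rose and 4 fell, and at 14 days 0 rose and 3 fell (limma); at an unadjusted p under 0.05 there were also 0 that rose at either time. The count of 3 at 14 days ran from 1 to 4 as single arrays were left out: it was 1 without sham replicate 2 or 3 or MI 14 days replicate 3 or 5, and 2 without sham replicate 4, MI 14 days replicate 1 or 2 or MI 3 days replicate 2 or 5. It was 0 with slide as a block and 2 without MI 3 days replicate 3 and MI 14 days replicate 5. A probe for Myh8, the perinatal myosin heavy chain, fell by 1.44 ± 0.12 log2 at 3 days (limma adjusted p = 1.5e-07), and its target has near-identical paralogs, so which myosin it reads is uncertain.

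Genes around the same structures went both ways. Of 11 further family relatives, 4 rose and 6 fell at 3 days, with Actn1, the non-muscle alpha-actinin, higher by 2.67 ± 0.22 log2 (adjusted p = 1.7e-07). Of 16 thin filament and Z-disc genes 3 rose and 10 fell, with Tpm2 (beta-tropomyosin) up by 1.98 ± 0.13 log2 (adjusted p = 3.1e-08) and the Z-disc gene Myot (myotilin) down by 2.56 ± 0.11 (adjusted p = 1.5e-09). All 9 genes of calcium cycling in the sarcoplasmic reticulum fell at 3 days (median -1.64 log2), and 7 of 9 were still lower at 14 days (median -0.71). Of the 11 genes of the foetal and wall-stress programme, 8 rose and 3 fell at 3 days, and 7 rose and 2 fell at 14 days (limma, as above). Myh7, the slow and foetal myosin heavy chain of the ventricle, was higher at 14 days by 3.66 ± 0.31 log2 (adjusted p = 6.1e-06), Nppa (atrial natriuretic peptide) by 3.67 ± 0.18 (adjusted p = 9.3e-08) and Acta1 (skeletal alpha-actin) by 1.37 ± 0.24 (adjusted p = 0.0010). The 2 that fell at 14 days were the myosin genes Myl4, by 1.99 ± 0.38 (limma adjusted p = 0.0017), and Myh7b, by 0.76 ± 0.18 (adjusted p = 0.0056). Tnni1, the foetal troponin I, was not counted among these 11 genes and had a difference of -0.04 ± 0.27 at 14 days.

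Of 18 regulators of muscle genes, 3 rose and 11 fell at 3 days, and 2 rose and 6 fell at 14 days (1 to 3 rose as single arrays were left out, and 1 without sham replicate 2, 3 or 4 or MI 14 days replicate 1, 2, 4 or 5, or without both MI 3 days replicate 3 and MI 14 days replicate 5). Tbx5, a cardiac T-box factor, fell by 2.44 ± 0.16 log2 at 3 days (adjusted p = 2.6e-08). Sox6, which represses slow fibre genes in skeletal muscle, fell to a fold of 0.250 (adjusted p = 8.8e-06). Without MI 3 days replicate 3 its MI 3 days levels ran from -5.25 to -4.04, near the dimmest signals called well above background. That size is therefore uncertain. Eya4, a transcriptional cofactor, rose by 1.60 ± 0.22 (adjusted p = 2.2e-05; limma in each case). Its sham signals were likewise dim.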

How the data were processed

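Expression was measured on 14 one-colour arrays. The values are linear Cy3 intensities deposited by the authors, which per the file headers are processed signals of Agilent's Feature Extraction software (10.7.3.1) after background subtraction and detrending, and were not scaled between arrays. The submitters' processing notes name limma, and no version is given in the sources used here. On the 10 arrays with scanner output, single-spot probes had equal values in both sources (tolerance 1e-05). Here log2 was taken and each array's 75th percentile subtracted. The scanner files hold no gene name column, so probes were named through RefSeq accessions (GRCm38.p6), which gave 27144 probes a symbol, and none of its coordinates were joined to the array.

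Differences were fitted over all 14 arrays with limma 3.58.1 (R 4.3.3), adjusted by Benjamini-Hochberg over 32261 tested probes at 0.05. The fit was tested on simulated data. The genes and lists were chosen with earlier results of these arrays known. For a gene with several probes the one with the highest mean level stands for it. All 9 genes are named. From each other list come genes with the largest differences from sham and some set beside the 9 by array. Replicates were taken as separate mice, since 1 sample was hybridised per array.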

Additional observations from a re-analysis of the deposited data

Results flagged for a closer look

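Levels were looked at in 78 sets of 4 or 5 arrays, and 11 had 1 array with a gap to the nearest other array that was a large share of the whole range. Chance flags about 1 in 20 such sets. MI 3 days replicate 3 was the highest in 8 of the 11, with levels of 3.49 for the second Tnnt3 probe (A_55_P2088375), 5.03 for Tnni2, 4.86 for Tnnc2, 0.40 for Myoz1, 1.11 for Actn3, 5.03 for Myh4, -0.84 for Myh1 and 3.28 for Pvalb. Sham replicate 1 was the highest of its group for Actn3, at -4.46, and sham replicate 3 the lowest for Pvalb, at -0.69. MI 14 days replicate 5 was the highest of its group for the cardiac Tnnt2, at 10.03.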

How the results depend on the processing

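No called result turned its direction under an alternative. Scaling by the 75th percentile of the tested probes turned the split of calls at MI 14 days against sham to 53.0% higher, against 39.2% with the main scaling. With slide as a block on the 10 arrays with scanner output, 5081 probes passed at MI 14 days against sham (10492 with all arrays) and 9129 at MI 14 days against MI 3 days (17947), and with normexp on the median signals, chosen after seeing the data, 10625 passed at MI 14 days against MI 3 days; these fits hold fewer arrays. Of the cardiac partners, 3 fell at MI 14 days against sham. It was 1 with the 75th percentile of the tested probes, with quantile normalization and with no filter, and 5 without MI 3 days replicate 3 and MI 14 days replicate 5 (chosen after seeing the data); leaving out 1 array at a time gave 1 to 4. The cause was not tested. Leaving out 1 array gave 19792 to 21446 probes at MI 3 days against sham, 8723 to 10795 at MI 14 days against sham and 16509 to 18325 at MI 14 days against MI 3 days.

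The replicate numbers share only a number: the correlations of same-numbered arrays' deviations ran from -0.14 to 0.22. With the replicate block 20969, 10383 and 17841 probes passed in the 3 contrasts. The sign of Tnnc2 differed under 8, 4 and 8 alternatives in the 3 contrasts, that of Tnni2 at 3 days with slide as a block and within slide 2, and that of Tnni1 at 3 days with normexp. The planned normexp on mean signals was not run, since the scanner files used here hold no mean signal column. Few arrays and, for Actn3 and Mylpf, signal near background limit what the values show.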
